A study of Homo sapiens with 4 samples.

Results

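The snoRNA host lncRNAs are noncoding genes whose introns hold small nucleolar RNAs. They were taken here by name, as every gene whose symbol is SNHG followed by a number, together with GAS5, ZFAS1, EPB41L4A-AS1 and DANCR. The rule found 28 genes among the 29833 of the expression table, and 23 of them had a mean level of at least 1 FPKM, against 12750 of all genes. FPKM scales the reads of a gene to its counted length and to the library total.

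The cells were Reh-6-MPR, a subline of the human B-cell acute lymphoblastic leukemia line Reh that had been made resistant to 6-mercaptopurine (6-MP), a purine analogue used in leukemia treatment, by growth in rising concentrations of the drug. RNA-seq was done on 4 libraries of this resistant line after 48 h, 1 each for PBS as vehicle, 4 mM histidine, 1.0 μg/mL 6-MP, and the combined treatment with both at these concentrations. The study asked how histidine alters the response of resistant leukemia cells to 6-MP. The sensitive parental line is not among these libraries, and Reh-6-MPR is a selected population, so resistance itself is not compared here. Each treatment has 1 library, so differences between treatments have no replicate error and no p-value, and the words higher and lower compare libraries. Whole reads were worked back from the FPKM values, and the 95% intervals are exact Clopper-Pearson intervals on these reads that cover counting error only.

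Small nucleolar RNAs guide the chemical modification of ribosomal RNA, C/D box RNAs for 2′-O-methylation and H/ACA box RNAs for pseudouridylation. They are cut from introns after splicing, and in the host genes described here the spliced exons form a long RNA with little or no coding capacity. Many such host RNAs begin with a tract of pyrimidines, the 5′ terminal oligopyrimidine motif of ribosomal protein mRNAs, and several, GAS5 and SNHG1 among them, are broken down by nonsense-mediated decay when they are translated. The level of a spliced host RNA in a poly(A) library therefore does not give the amount of the snoRNA made from its introns.

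The combined library was the shallowest, with 12899122 reads as the FPKM denominator, and the vehicle, 6-MP and histidine libraries had 14316493, 15342296 and 15486376. Of the 11 B-lineage markers looked up, 10 were in the table, all with a mean of at least 1 FPKM, including PAX5 at 72.3 FPKM with vehicle and 55.9 in the combined library, and CD79A at 246 and 333. None of the 4 T-lineage markers was in the table. Of 6 myeloid markers 4 were in the table, and their summed level was 28.8 FPKM with vehicle, 31.2 with histidine, 27.0 with 6-MP and 43.7 in the combined library. MPO, a granule enzyme gene, made up most of it, at 27.7 FPKM with vehicle and 41.0 in the combined library, and LYZ went from 0.32 to 1.39, CSF1R from 0.62 to 1.25 and CD14 from 0.17 to 0.05. COL1A1, the only one of 4 fibroblast markers in the table, had 0.87 FPKM with vehicle and 2.04 in the combined library. Of 4 erythroid markers 3 were in the table, with a summed level of at most 0.49 FPKM, and HBB was listed at 0 in all libraries except histidine. The part of such transcripts in the results was not tested.

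The start regions of some members at both ends of the response are shown first, since the start of a host RNA can carry the pyrimidine tract. They are from RefSeq on GRCh38.p14, written 5′ to 3′ on the gene's strand, and capitals mark a C/T run at the start site or the E-box CACGTG, a recognition sequence of MYC and related factors. SNHG4 (chr5:139273851-139274150, plus strand), SNHG7 (chr9:136728135-136728434, minus strand) and SNHG1 (chr11:62855836-62856135, minus strand) are given over 250 bases before and 50 after the start. DANCR (chr4:52712364-52712423, plus strand) and SNHG3 (chr1:28505913-28505972, plus strand) are given over 30 bases on each side. SNHG6, also among the members highest relative to vehicle in the combined library, had no entry among the RefSeq promoters used and is not shown.
SNHG4: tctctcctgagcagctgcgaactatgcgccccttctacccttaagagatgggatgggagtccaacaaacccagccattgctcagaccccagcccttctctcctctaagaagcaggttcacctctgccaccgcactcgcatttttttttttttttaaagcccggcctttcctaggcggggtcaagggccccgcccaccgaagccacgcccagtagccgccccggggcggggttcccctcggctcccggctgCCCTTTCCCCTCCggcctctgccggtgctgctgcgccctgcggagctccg
DANCR: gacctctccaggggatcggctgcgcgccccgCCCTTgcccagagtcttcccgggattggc
SNHG3: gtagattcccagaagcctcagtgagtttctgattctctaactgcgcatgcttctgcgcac
SNHG7: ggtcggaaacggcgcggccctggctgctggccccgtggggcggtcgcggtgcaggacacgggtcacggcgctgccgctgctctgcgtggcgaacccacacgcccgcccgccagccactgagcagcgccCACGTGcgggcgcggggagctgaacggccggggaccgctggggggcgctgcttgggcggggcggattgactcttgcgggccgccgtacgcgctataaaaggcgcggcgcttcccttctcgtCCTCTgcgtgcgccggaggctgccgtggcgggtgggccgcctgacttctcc
SNHG1: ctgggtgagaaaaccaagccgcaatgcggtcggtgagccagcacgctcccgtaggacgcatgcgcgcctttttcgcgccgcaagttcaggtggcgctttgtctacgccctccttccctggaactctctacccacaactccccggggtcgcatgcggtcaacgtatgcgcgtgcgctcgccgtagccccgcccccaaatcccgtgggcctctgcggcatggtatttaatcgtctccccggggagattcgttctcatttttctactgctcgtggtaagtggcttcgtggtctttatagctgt
SNHG4 has a run of 13 pyrimidines at its start, and DANCR and SNHG7 have runs of 5. A pyrimidine start was defined as a C within 2 bases of the RefSeq start followed by at least 4 bases that are C or T. It was present in 6 of the 21 members above the filter that have a RefSeq promoter, namely SNHG4, DANCR, ZFAS1, SNHG12, SNHG19 and SNHG7, and in 10.5% of all 35116 promoters. These 6 include members that were higher and members that were lower in the combined library. CACGTG, which reads the same on both strands, was found in SNHG7 at position -122 and in SNHG30 at position -65 relative to the start, and in 7.26% of all promoters. The RefSeq start lies 1 base from the start in the table for SNHG4, at the same base for SNHG7, and 69, 68 and 37 bases away for DANCR, SNHG1 and SNHG3. For SNHG19 it is at the same base, but for ZFAS1 and SNHG12 it is 464 and 1259 bases away. Members without a pyrimidine start vary too, from the same base for EPB41L4A-AS1 to -163 bases for GAS5 and -154975 for SNHG14. The count of 6 thus describes RefSeq starts, which need not be those of the RNAs counted here.

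With vehicle, 4 members stood above the rest in level per length: SNHG19 at 48.2 FPKM, SNHG6 at 45.0, SNHG1 at 40.7 and GAS5 at 40.5. SNHG29 at 30.6, SNHG3 at 28.0 and SNHG4 at 21.5 FPKM followed. SNHG19 and SNHG6 rest on 236 and 803 reads over short counted lengths, whereas SNHG29, SNHG14 and GAS5 had the most reads, 3139, 3031 and 2805. The counted length of SNHG1 covers its whole span, introns included, so its FPKM is low relative to a length of exons only. Below the filter, SNHG5 had between 0.643 and 0.802 FPKM on 116 to 155 reads. The other 4 members below the filter, SNHG9, SNHG18, SNHG22 and SNHG32, had at most 10 reads in any library.

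**Figure D1:**
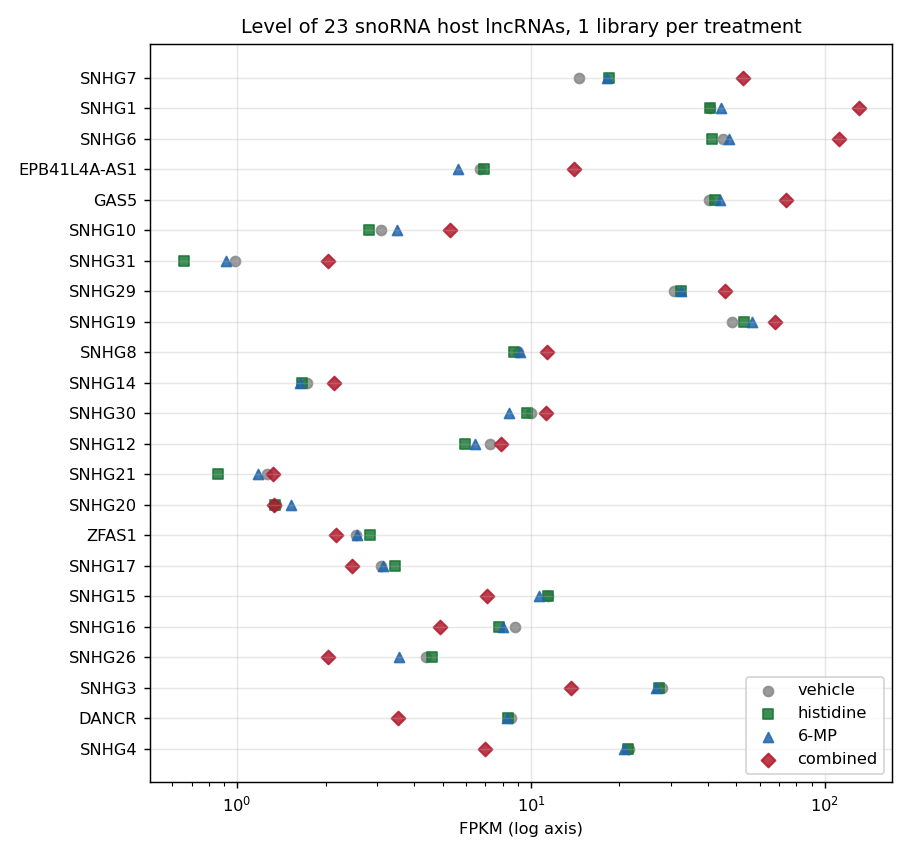
Level of the 23 members with a mean of at least 1 FPKM, in FPKM on a log axis, with 1 point per library. The points of vehicle, histidine and 6-MP lie close together for most members, and the combined treatment lies outside them, highest for SNHG7, SNHG1 and SNHG6 relative to vehicle and lowest for SNHG4.

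Histidine alone and 6-MP alone left the host lncRNAs near their vehicle levels. The log2 fold change, a difference of log2(FPKM + 1), ran from -0.28 (SNHG21) to 0.33 (SNHG7) with histidine and from -0.25 (SNHG26) to 0.30 (SNHG7) with 6-MP. No member reached an absolute log2 fold change of 1, the fold threshold used throughout, in either comparison, beside 1.33% of all genes with histidine and 1.18% with 6-MP. The median over the 23 members was -0.01 with histidine and -0.04 with 6-MP, and that over all genes above the filter was 0.01 and 0.00. Counting error leaves few of these differences distinct from 0. With histidine the interval of the read ratio lay above 0 for SNHG7 and SNHG29 and below 0 for SNHG12 and SNHG16. With 6-MP it lay above 0 for SNHG7, SNHG29, GAS5 and SNHG1 and below 0 for SNHG26, EPB41L4A-AS1 and SNHG14. All the other members had intervals that included 0, 19 of 23 with histidine and 16 with 6-MP. Intervals were computed for the members only, so these counts have no share of all genes beside them.

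SNHG7 had the largest log2 fold change of the members under each single agent on the FPKM + 1 scale. With histidine the low genes SNHG31 and SNHG21 were farther from vehicle in log2 read ratio, at -0.58 (-1.37 to 0.19) and -0.55 (-1.66 to 0.52), on 26 and 14 reads and with intervals that include 0. It had 14.6 FPKM with vehicle, 18.5 with histidine and 18.1 with 6-MP, on 1019, 1400 and 1359 reads. The log2 read ratio to vehicle was 0.34 (0.23 to 0.46) with histidine and 0.32 (0.20 to 0.43) with 6-MP. Of the members with intervals below 0, SNHG12 had 5.98 FPKM with histidine against 7.27 with vehicle, and SNHG26 had 3.55 with 6-MP against 4.41 with vehicle.

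In FPKM, every one of the 23 members in the combined treatment lay outside the range of the other 3 libraries. For some the gap was small, as for SNHG20, with 1.337 FPKM against 1.347 with histidine. When values were scaled by the median ratio over all genes, SNHG12 and SNHG21 fell inside the range. Their log2 fold changes were then -0.03 and -0.05 against vehicle and 0.24 and 0.25 against histidine. FPKM was above all 3 for 14 members and below all 3 for 9, beside 53.8% of all genes above and 28.8% below. Against vehicle, 3 members were past the threshold upward (SNHG7, SNHG1 and SNHG6) and 2 downward (SNHG4 and DANCR). These 5 of 23 stand beside 6.53% of all genes, or 5.01% upward and 1.51% downward, and beside 11.5% of the 1345 other lncRNA genes above the filter. The median log2 fold change of the members was 0.15, close to the 0.13 of all genes, while the median of the absolute values was 0.62 in the members, 0.29 in all genes and 0.40 in the other lncRNAs. The members thus differed more widely in size, in both directions, than their median shows. Without SNHG4 the median was 0.18, with 3 members past the threshold upward and 1 downward. SNHG31 passed the filter only through its level in the combined treatment. Over all 28 members with no filter the median was 0.14 and the same number, 5, was past the threshold, beside 4.17% of all 29833 genes, whose median was 0.07.

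**Figure D2:**
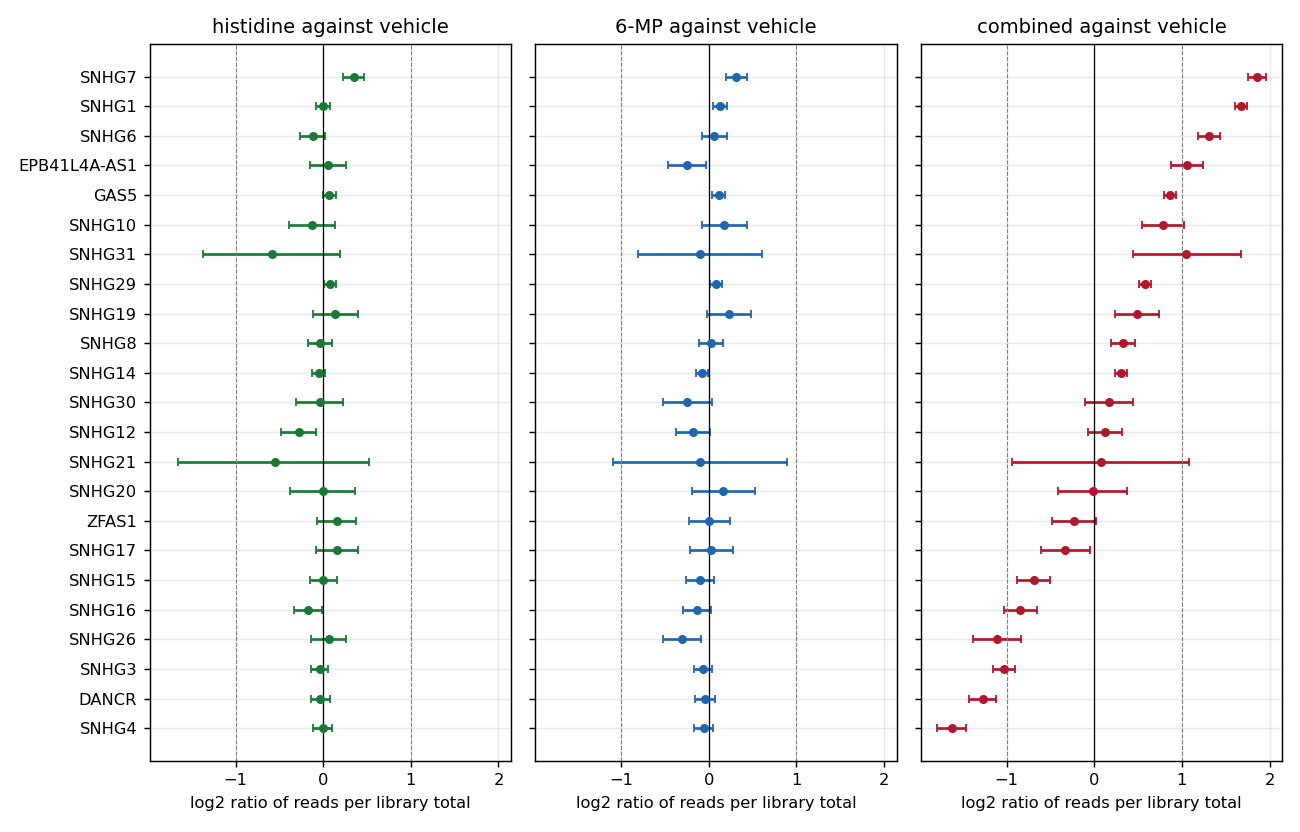
Log2 ratio of reads per library total with exact 95% intervals of counting error, for each of the 23 members, with 1 panel per treatment against vehicle and dashed lines at -1 and 1. Intervals of the single agents mostly include 0, while those of the combined treatment against vehicle lie above 0 for 11 members and below 0 for 7. The same shares over all genes were not computed.

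SNHG7 holds 2 H/ACA snoRNAs in RefSeq. Its level was 52.7 FPKM in the combined library, on 3327 reads, against the 14.6 of vehicle, a read ratio of 3.62 and a log2 fold change of 1.79. That value has rank 114 from the top among all 12750 genes above the filter. SNHG1, the host of 8 C/D snoRNAs, had 40.7 FPKM with vehicle, 40.6 with histidine, 44.4 with 6-MP and 130.2 in the combined library, on 2313, 2494, 2703 and 6670 reads. The 3 other libraries lie within 0.13 of each other on the log2 scale, and the combined treatment is 1.65 above vehicle, with a log2 read ratio of 1.68 (1.61 to 1.75). SNHG6, with 1 C/D snoRNA, had 45.0, 41.4, 47.0 and 111.3 FPKM in the same order, a log2 fold change of 1.29. It is the member just inside the threshold upward.

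EPB41L4A-AS1, the host of SNORA13, lies just outside, with 6.69 FPKM with vehicle, 6.93 with histidine, 5.63 with 6-MP and 14.0 in the combined library. The log2 fold change was 0.96 against vehicle and 1.17 against 6-MP, where it passes the threshold. GAS5, first found as a transcript of growth-arrested cells and the host of 10 C/D snoRNAs and 1 H/ACA snoRNA in RefSeq, had 40.5, 42.4, 43.8 and 73.6 FPKM, with a log2 fold change of 0.85 against vehicle and an interval of the read ratio of 0.79 to 0.93. Smaller log2 fold changes above vehicle on the FPKM + 1 scale, with intervals of the read ratio above 0, were those of SNHG10 (0.63), SNHG31 (0.61), SNHG29 (0.57), SNHG19 (0.48), SNHG8 (0.30) and SNHG14 (0.20). SNHG31 had 36 reads with vehicle and 67 in the combined library, and for a gene this low the added 1 FPKM shrinks the fold. Its read ratio was 2.07, above the 1.82 of GAS5, with a log2 interval of 0.44 to 1.67 that holds the whole interval of GAS5. SNHG29, host of 3 C/D snoRNAs, had 30.6 FPKM with vehicle, 32.3 with histidine and with 6-MP, and 45.7 in the combined library, on 3139, 3587, 3555 and 4233 reads. SNHG19, with 1 C/D snoRNA, had 48.2, 53.1, 56.4 and 67.6 FPKM in the same order. SNHG29 was slightly above vehicle with each single agent and well above it in the combined library, whereas the values of SNHG19 rest on fewer reads and its interval in the combined library, 0.24 to 0.74, is wider. SNHG14 is a long transcript that spans the imprinted region of chromosome 15 with 83 C/D snoRNA genes, and its level was between 1.64 and 2.13 FPKM.

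SNHG4 stood at the other end. This gene (ENSG00000281398) lies at chr5:139274102-139284899 on the plus strand of GRCh38 and holds 2 H/ACA snoRNA genes, SNORA74A and SNORA74D. It had 21.5 FPKM with vehicle, 21.4 with histidine, 20.7 with 6-MP and 6.96 in the combined library, on 1377, 1483, 1418 and 401 reads. The first 3 libraries span a range of 0.05 on the log2 scale, and the combined treatment is far below them. The log2 fold change was -1.50 against vehicle, -1.45 against 6-MP and -1.50 against histidine, and the value against vehicle has rank 50 from the bottom among all 12750 genes. The log2 read ratio to vehicle was -1.63 (-1.79 to -1.47), 0.323 of the vehicle level.

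DANCR, the host of 1 H/ACA snoRNA, was the other member past the threshold downward. It had 8.54, 8.35, 8.31 and 3.53 FPKM in the order of vehicle, histidine, 6-MP and combined treatment, a log2 fold change of -1.07 against vehicle. SNHG3, the host of 2 H/ACA snoRNAs, had 28.0, 27.2, 26.7 and 13.7 FPKM and a log2 fold change of -0.98, just outside. As with SNHG4, the single-agent libraries of both are nearly level with vehicle, and the intervals of their read ratios in the combined treatment, -1.43 to -1.12 and -1.16 to -0.90, do not reach those of the members that were higher. The interval of SNHG4 lies below those of DANCR and SNHG3. SNHG26 (-0.83), SNHG16 (-0.73), SNHG15 (-0.62) and SNHG17 (-0.24) were also lower with intervals below 0. SNHG15, host of 1 H/ACA snoRNA, had 11.4 FPKM with vehicle and with histidine, 10.6 with 6-MP and 7.07 in the combined library. SNHG16, host of 3 C/D snoRNAs, had 8.79, 7.79, 8.02 and 4.90 FPKM in that order. Both were lowest in the combined library, and their read ratios to vehicle were 0.620 and 0.557. SNHG26 had 4.41, 4.59, 3.55 and 2.04 FPKM, a read ratio of 0.463, and the library with 6-MP alone already lay below vehicle. For SNHG30, SNHG12, SNHG21, SNHG20 and ZFAS1, with fold changes between -0.16 and 0.15, the interval against vehicle included 0.

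The combined treatment was also compared with each single agent. These comparisons share the combined library with the comparison to vehicle and are not independent of it. Against 6-MP, 4 members were past the threshold upward and 2 downward, beside 6.02% of all genes in either direction, 4.82% upward and 1.2% downward. Against histidine the numbers were 3 and 2, beside 5.55% of all genes, 4.15% upward and 1.4% downward. Departure from additivity is the log2 fold change of combined against 6-MP less that of histidine against vehicle. It was at least 1 in absolute value for 6 members, beside 6.76% of all genes, 4.85% upward and 1.91% downward. The departure was positive for SNHG1 (1.54), SNHG6 (1.34), SNHG7 (1.17) and EPB41L4A-AS1 (1.13) and negative for SNHG4 (-1.44) and DANCR (-1.01).

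**Figure D3:**
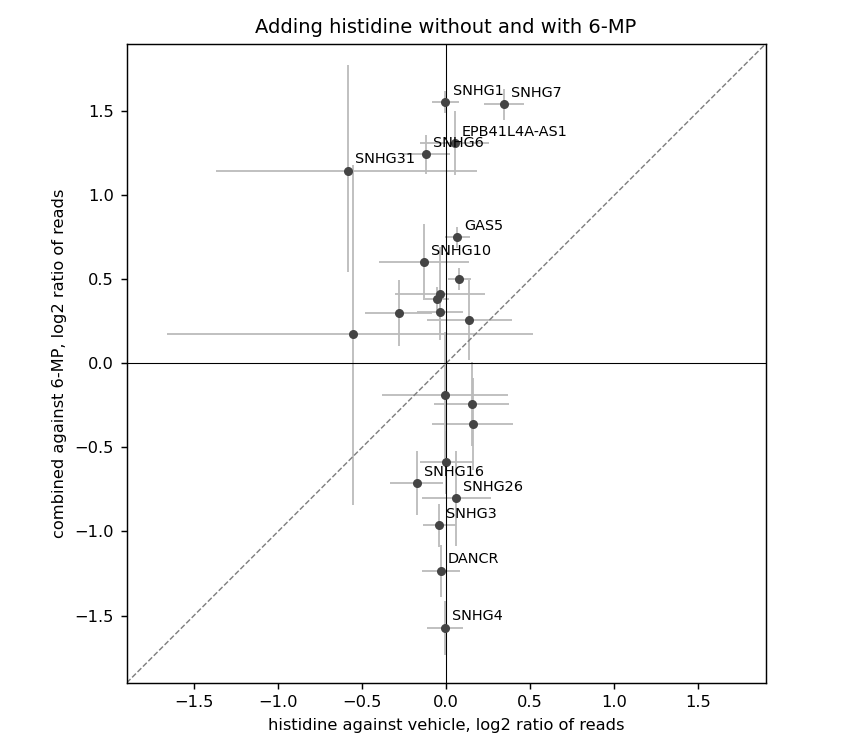
Log2 read ratio for adding histidine to vehicle (x axis) and to 6-MP (y axis), 1 point per member with bars for the exact 95% intervals of counting error. The points spread over the y axis from -1.57 for SNHG4 to 1.55 for SNHG1 and stay within a narrow range on the x axis.

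The total of the class was carried by a few members. All 28 genes together took 1557.5 reads per 1000000 of the library total with vehicle, 1575 with histidine, 1585 with 6-MP and 2340.2 in the combined library. The log2 ratio of the summed reads of the 23 members was 0.59 (0.56 to 0.61) for the combined treatment against vehicle. SNHG1 made up 11.7% of the summed FPKM in the vehicle library, 11.5% and 12.2% in the histidine and 6-MP libraries, and 22.4% in the combined library. The median FPKM of the members went the other way, 8.79 with vehicle and 7.07 in the combined library. SNHG19 had the highest level in the first 3 libraries and SNHG1 in the combined one.

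**Figure D4:**
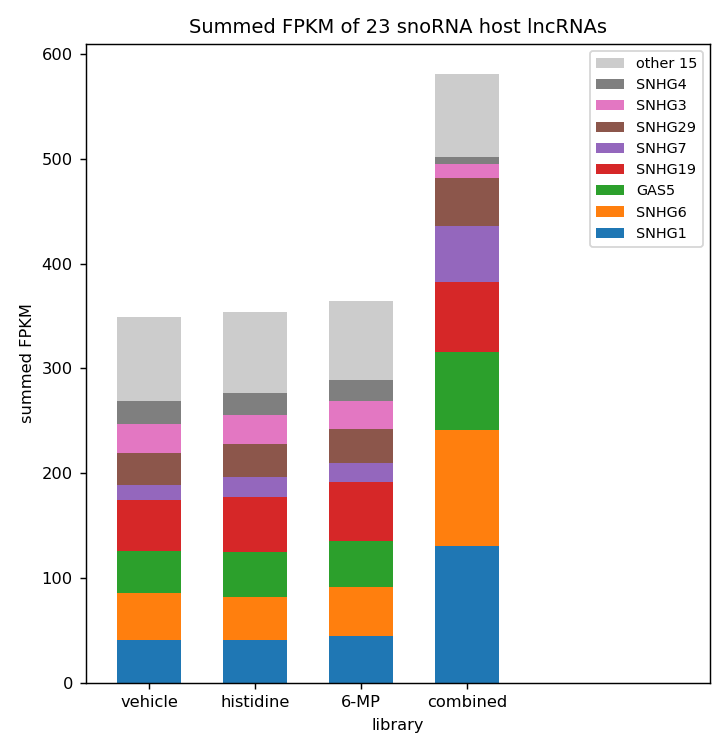
Summed FPKM of the 23 members in each library, as stacked bars with the members of highest level in colour and the other 15 in grey. The sum is 349 with vehicle, 354 with histidine, 364 with 6-MP and 581 in the combined library, where SNHG1 takes 22.4%.

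The members were then set against the class of snoRNA within their span, from RefSeq positions. Neither the strand nor the place in an intron was checked for these. Of the 23, 9 hold only C/D snoRNAs, 9 only H/ACA snoRNAs, 2 hold both and 3 hold only small Cajal body RNAs. The median log2 fold change of the combined treatment against vehicle was 0.20 for the C/D hosts, from -0.83 to 1.65, and -0.24 for the H/ACA hosts, from -1.50 to 1.79. The ranges overlap over most of their length, and SNHG7, the highest of all members, is an H/ACA host as are SNHG4, DANCR and SNHG3. Poly(A) libraries hold few reads of the snoRNAs themselves. The 14 snoRNA genes of the table that lie in members on the same strand had 55, 90, 75 and 22 reads in all, in the order of vehicle, histidine, 6-MP and combined treatment. Most of these reads were of SNORA73B in SNHG3, with 21, 35, 32 and 4 reads, and of SNORA71B in SNHG17, with 20, 38, 28 and 9. For SNORA73B the interval of the log2 read ratio of the combined treatment to vehicle was -4.24 to -0.67, and for SNORA71B it included 0.

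Several members share their span with other genes. The strand setting of the counting is not given, and reads from overlapping genes cannot be told apart in these values. Of the 23 members 19 overlap another gene of the table, and 11 overlap a protein-coding gene above the filter. SNHG4 lies wholly inside an annotated span of MATR3 on its own strand, an entry with at most 0.033 FPKM in any library, and inside SIL1 on the opposite strand, which had 2.42 FPKM with vehicle and 2.81 in the combined library. SNHG3 shares its span with RCC1 on the same strand, which had 64.9 FPKM with vehicle and 45.1 in the combined library, a log2 fold change of -0.52 against the -0.98 of SNHG3. SNHG1, SNHG8, SNHG15 and SNHG19 overlap no other gene, with log2 fold changes of 1.65, 0.30, -0.62 and 0.48.

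Some hosts start back to back with a protein-coding gene. SNHG1 and SLC3A2, the heavy chain of amino acid transporters, start 51 bases apart on opposite strands. SLC3A2 had 28.3 FPKM with vehicle, 28.6 with histidine, 27.9 with 6-MP and 47.1 in the combined library, so both genes of the pair were highest in the combined library, with log2 fold changes against vehicle of 0.72 for SLC3A2 and 1.65 for SNHG1. There were 6 such pairs with both genes above the filter and starts within 5000 bases, and the log2 fold changes of host and neighbour had the same sign in 4 and opposite signs in 2. The other 3 of the same sign were SNHG31 and BARD1, at 0.61 and 0.33, GAS5 and ZBTB37, at 0.85 and 0.20, and ZFAS1 and ZNFX1, at -0.16 and -0.13. Signs were opposite for SNHG10 and GLRX5, which also overlap by 1387 bases, at 0.63 and -0.42, and for SNHG19 and TRAF7, at 0.48 and -0.17.

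Protein-coding genes that host snoRNAs, and genes of proteins that work with snoRNAs, were followed in lists chosen beside the members. Of 48 protein-coding snoRNA hosts, none was past the threshold upward and 3 downward in the combined treatment against vehicle, with a median of -0.08. That is 6.25% of the list, all downward, beside 1.51% of all genes downward, 5.01% upward and 6.53% in either direction. The 3 were NCL (nucleolin), at 197 and 90.6 FPKM, WDR43, at 41.6 and 19.4, and DKC1 (dyskerin, the pseudouridine synthase of H/ACA particles), at 55.8 and 27.1. TPT1, at 59.8 and 107.0 FPKM, was the highest of this list. Some core proteins of the snoRNA particles, DKC1 among them, are also in the list of hosts, so the call of DKC1 counts in both lists. The 8 core proteins had a median of -0.67, with DKC1 alone past the threshold. FBL (fibrillarin, the C/D methyltransferase) was the only one above 0, with 22.6 FPKM with vehicle, 32.9 with histidine, 17.6 with 6-MP and 31.7 in the combined library, which put the combined library within the range of the others. Of 9 assembly factors RUVBL1 was past the threshold, at 24.3 and 11.3 FPKM, and the median was -0.23. No gene of these 3 lists was past it with histidine or 6-MP alone.

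Genes that act on the host RNAs or their promoters were read in the same comparison. None of 14 nonsense-mediated decay factors was past the threshold, with a median of 0.01 and values from -0.45 (MAGOH) to 0.73 (UPF3B). None of 11 regulators of 5′ terminal oligopyrimidine translation was, from -0.86 (EIF4E, the cap-binding protein) to 0.28 (TSC2). Of 8 genes of the MYC network MYC was past the threshold, with 70.4 FPKM with vehicle, 64.9 with histidine, 65.0 with 6-MP and 17.7 in the combined library. Of 81 cytosolic ribosomal protein genes, 2 were past it, both upward, and the median of the list was 0.11. That is 2.47%, beside 5.01% of all genes upward and 6.53% in either direction. With 1 called gene in each of the lists of 8 and 9, their shares cannot be read against that of all genes.

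Scaling bears on the direction of small values. FPKM values of the combined treatment lie 0.13 above those of vehicle on the log2 scale in the median of all genes. With scaling by the median ratio this shift was removed, and the median of the members was 0.01, with 3 members past the threshold upward and 3 downward, SNHG3 being the added one at -1.13. The split of all genes past the threshold was 639 upward and 193 downward with FPKM, and 472 and 272 with the median ratio. SNHG4 was at -1.64 and SNHG7 at 1.64 with this scaling, SNHG12 and SNHG21, with small positive values in FPKM, were at -0.03 and -0.05, and the other members kept their sign. The median was -0.04 for the ribosomal protein genes and -0.13 for the decay factors, both above 0 in FPKM.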

How the data were processed

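The 4 RNA-seq libraries of Reh-6-MPR were assigned to treatments by GEO's sample labels. Stranded poly(A) libraries (TruSeq Stranded mRNA) were made and sequenced for the authors by a company, and the authors deposited 1 FPKM value for each gene and library, with symbols and positions. The submitters' processing notes name Trimmomatic, HISAT2, Cufflinks, HTSeq and GRCh38 (hg38) without versions or roles. The annotation and the strand setting of the counting are not given in the sources used here. FPKM depends on the reads of the whole library, so a few abundant genes can shift all others. The authors tested expression with DESeq2. That test was not repeated, since there is 1 library per treatment, and no p-value was computed.

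Reads were recovered from the steps of the FPKM values, whole for 29832 of 29833 genes, with library denominators within 0.0242 of whole numbers. Counted lengths were the GENCODE 29 exon lengths where these fitted (11 members) and otherwise the shortest length that fitted (17 members). Log2 fold changes were differences of log2(FPKM + 1), over genes with a mean of at least 1 FPKM, and an absolute value of at least 1 was counted as past the threshold. Ratios of reads per denominator were given exact Clopper-Pearson 95% intervals, which compare libraries and not treatments.

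The members and the lists were chosen with earlier results of these data known. All members are named, with genes overlapping SNHG4, SNHG3 and SNHG10, and 1 further overlap is not reported here. In the lists, genes past the threshold, or else the highest and the lowest of the combined treatment against vehicle, are named. FBL, PAX5, CD79A and the genes that start near a member were named after their values were seen. Promoters and snoRNA positions were those of RefSeq on GRCh38.p14, where 25 of the 28 members had a promoter. Alternatives were a pseudocount of 0.1, no filter and a mean of at least 5 FPKM, median-ratio scaling, scaling to TPM, thresholds of 0.5 and 1.5, all members except SNHG4, and members that overlap no other gene. Scripts were tested on simulated data. Analyses ran in Python 3.11.15 with scipy 1.17.1, pandas 2.3.3, numpy 2.4.6 and matplotlib 3.10.9.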

Additional observations from a re-analysis of the deposited data

Results flagged for a closer look

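For 3 members the intervals of counting error put the effect of 1 agent on opposite sides of 0 without and with the other agent. They were picked out of all members above the filter and both agents, and the share of all genes that meet this rule was not computed. With 1 library per treatment the difference was not tested across replicates. EPB41L4A-AS1 was lower with 6-MP than with vehicle, at a log2 read ratio of -0.25 (-0.47 to -0.03), and higher in the combined library than with histidine, at 1.01 (0.83 to 1.19), with a departure from additivity of 1.13. SNHG12 was lower with histidine than with vehicle, at -0.28 (-0.48 to -0.08), and higher in the combined library than in the 6-MP library, at 0.30 (0.10 to 0.49), with a departure of 0.51. With median-ratio scaling its log2 fold change of combined against 6-MP was 0.13, where FPKM gave 0.26. Intervals were not computed with this scaling, so whether SNHG12 would still meet the rule was not tested. SNHG14 was slightly lower with 6-MP than with vehicle, at -0.08 (-0.15 to -0.005), and higher in the combined library than with histidine, at 0.36 (0.29 to 0.43), with a departure of 0.28.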

How the results depend on the processing

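No paired analysis was possible because there are no replicate libraries to pair, and leaving out replicates did not apply. The number of members past the threshold in the combined treatment against vehicle, 5 of 23, was 8 with a pseudocount of 0.1, which raises the folds of low genes by construction, when 11.9% of all genes were past it. Against histidine it was 8, of 25 members, with TPM, when 15.7% of 17949 genes were past it, and the cause was not tested. A threshold of 1.5 left 3 members against vehicle and 1 each against 6-MP, against histidine and in departure from additivity, beside 2.09%, 1.93%, 1.76% and 2.31% of all genes. A threshold of 0.5 gave 14, 12, 13 and 13 in the same order, beside 27.1%, 26.2%, 25.4% and 27.3% of all genes. Among the 4 members that overlap no other gene, 1 was past the threshold in each of these comparisons, and the median against vehicle was 0.39, since few members remain. Over the members that passed the filter of each setting, the other medians against vehicle ranged from 0.01 with the median ratio to 0.30 with a mean of at least 5 FPKM. Of 642 values of single members under the alternatives, 606 moved by less than the distance from centre to end of their counting interval. These include 138 values with no filter and 90 with a mean of at least 5 FPKM. A filter changes no fold, so those values could not move. Of 138 values each, 131 stayed within this distance with a pseudocount of 0.1, 134 with TPM and 113 with the median ratio. Sign changed for 5 values with the median ratio and 5 with TPM, and for none of the values past the threshold. Without replicates the spread between cultures is unknown.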
